A study of Danio rerio with 6 samples.

Results

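Slow muscle fibres build their sarcomeres, the contractile units of muscle, from their own set of proteins, and 7 genes of that set are described here: smyhc1, myl10, myl13, mybpc3, actn2b, tpm3 and casq2. Each gene was measured by 1 probe set, found by its single symbol in the platform annotation, so the group holds 7 of the 8793 genes named on the array, on 7 of its 15502 probe sets that are not controls. The members were chosen by their slow fibre role with the measured differences between the genotypes of these arrays already known. Those differences are therefore given as a description, and no p-value is given for a member.

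The arrays hold RNA of whole zebrafish embryos at 25 hours post fertilization, 3 arrays of embryos with the genotype label prdm1 null mutant and 3 of wild type. The series design text names the gene prdm1a, the labels give no allele, and the mutants were picked out by their phenotype. How many embryos went into a sample was not stated. No probe set was named prdm1a, so the mutated gene itself is not analysed here. Over the probe sets tested, correlations lay between 0.948 and 0.976 within a genotype and between 0.923 and 0.949 across genotypes, and no pair of arrays held identical values.

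In the zebrafish embryo, slow fibres arise from the adaxial cells beside the notochord under Hedgehog signalling, and fast fibres form from the rest of the somite. The transcription factor Prdm1a acts in the adaxial cells, where it is known to promote the slow fibre programme and to repress fast fibre genes. Myosin heavy and light chains make up the thick filament and the myosin head, myosin-binding protein C lies along the thick filament, tropomyosin covers the thin filament, alpha-actinin anchors thin filaments at the Z-disc, and calsequestrin stores calcium in the sarcoplasmic reticulum.

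The thick filament genes were lower in the mutant, while the tropomyosin gene tpm3 and the calsequestrin gene casq2 differed little. The slow myosin heavy chain gene smyhc1 was 7.89-fold lower, the light chain genes myl10 and myl13 were 3.55-fold and 1.97-fold lower, and the myosin-binding protein gene mybpc3 was 2.14-fold lower. The difference in tpm3 was 1.15-fold. The alpha-actinin gene actn2b averaged lower on dim signals that overlapped between the genotypes.

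In a limma fit over all 10851 probe sets tested, 4 of the 7 members passed an adjusted p of 0.05 as lower in the mutant, beside 1.85% of all probe sets tested. No member passed as higher, beside 1.54% of all probe sets. At an unadjusted limma p of 0.05 the members again gave 4 lower and 0 higher, beside 10.3% lower and 10.2% higher over all probe sets. On 5 of 7 members every mutant array lay below every wild-type array, beside 13.8% of all probe sets tested. No member had every mutant array above every wild-type array, beside 13.2%. Nothing is read from these counts, since the same contrast was known when the members were chosen. The median log2 difference was -1.10 over the members and 0.02 over all probe sets tested.

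**Figure D1:**
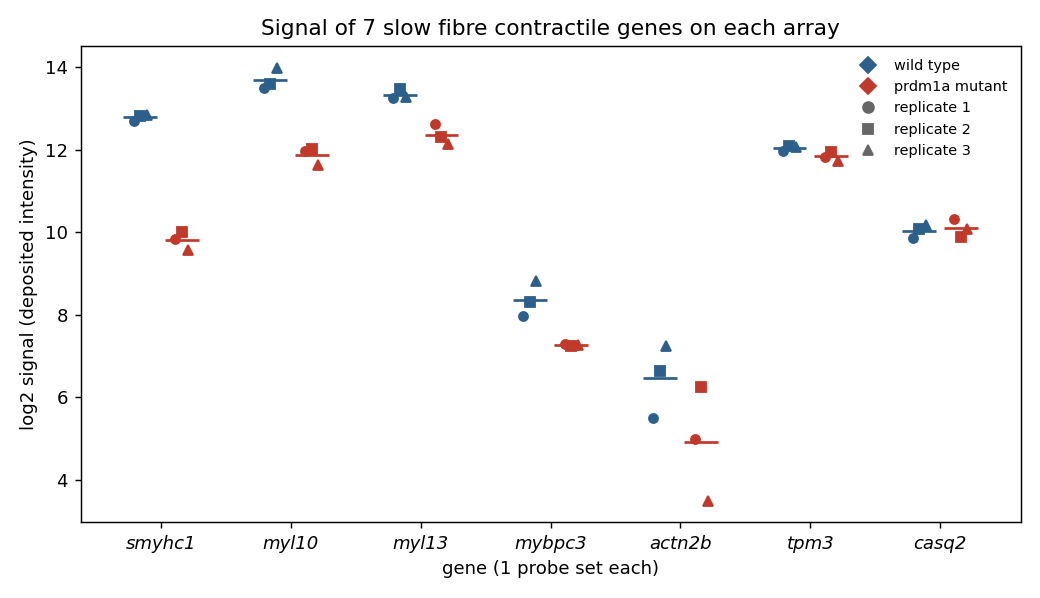
Log2 signal of the 7 genes on each of the 6 arrays (y axis), by gene (x axis), with a horizontal line at the mean of 3 arrays; colour gives the genotype and shape the replicate number. The genotypes are farthest apart for smyhc1, at means of 12.78 in wild type and 9.80 in the mutant, and overlap for actn2b and casq2.

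The gene smyhc1 encodes the myosin heavy chain, the motor protein, of the first slow fibres of the embryo. Its signal in the wild-type arrays was 6659.7, 7251 and 7262 in replicates 1 to 3, and in the mutant arrays 911, 1025 and 765. The lowest wild-type array lay far above the highest mutant array, and every wild-type array stood close to the others. Over the 9 pairs of a mutant and a wild-type array, the log2 difference ran from -3.25 to -2.70, around a mean of -2.98 (limma SE 0.14, n = 3 per genotype). Signal remained in the mutant: its smyhc1 probe set ranked between 2352 and 2966 among the 15502 on each mutant array, against 289 to 307 in wild type. In whole embryos, fewer slow fibres and less RNA in each fibre cannot be told apart. In the RefSeq order of genes of the GRCz12tu assembly, smyhc1 is followed by its relatives smyhc2 and smyhc3, for which no probe set carried the name, and whether the smyhc1 probe set also detects their transcripts was not tested.

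The gene myl10 encodes a regulatory light chain of the myosin head. Its signals were 11569.5, 12339.6 and 16209 in wild-type replicates 1 to 3 and 3995, 4135 and 3136 in the mutant. The groups did not overlap, and the widest gap inside a group was that of wild-type replicate 3 to the other wild-type arrays. The log2 signal averaged 13.69 ± 0.26 in wild type and 11.86 ± 0.22 in the mutant (SD, n = 3 each), a difference of -1.83 (limma SE 0.16). Its rank on the array went from between 121 and 158 in wild type to between 540 and 740 in the mutant.

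The second light chain gene, myl13, differed less than myl10. Its signals were 9653, 11333 and 9835 in wild type and 6259.8, 5039 and 4485.5 in the mutant. Again no mutant array reached a wild-type array, and the pairwise log2 differences ran from -1.34 to -0.62. The mean difference was -0.98 (limma SE 0.14), from 13.32 ± 0.13 in wild type to 12.35 ± 0.24 in the mutant (log2 signal, SD, n = 3 each). Its ranks went from between 175 and 204 in wild type to between 358 and 500 in the mutant, a smaller shift than that of myl10.

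The gene mybpc3 encodes a myosin-binding protein C that is also known from heart muscle. Its wild-type signals were 249.6, 318.0 and 454, and its mutant signals 158, 152 and 153. The mutant arrays stood almost together, with a log2 SD of 0.03, while the wild-type arrays spread with a log2 SD of 0.43. The difference of -1.10 (limma SE 0.24) thus ranged from -1.58 to -0.66 over pairs of arrays, depending mostly on which wild-type array was taken.

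The thin filament gene tpm3 encodes a tropomyosin, which in mammals is the slow fibre form. Its signals were 4021, 4323 and 4285 in wild type and 3641, 3958 and 3404 in the mutant. The groups did not overlap, but the log2 difference between the brightest mutant array and the dimmest wild-type array was -0.02. The difference was -0.20 (limma SE 0.11), and 2988 of the 10851 probe sets tested had a more negative one. Which cells of the whole embryos, or which transcript forms, gave the tpm3 signal was not tested.

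The gene actn2b encodes an alpha-actinin of the Z-disc, a form that heart muscle also uses. It was the dimmest member, with signals of 45.3, 100.2 and 151 in wild type and 31.8, 76.6 and 11.3 in the mutant. Each genotype spread widely and the groups overlapped, with mutant replicate 2 above wild-type replicate 1. The filter on low values stood at a signal of 41.1, so 2 of the mutant arrays lay under that level. The mean log2 difference of -1.55 (limma SE 0.69) covered pairwise differences from -3.74 to 0.76. With an offset of 64 added before the log, which compresses dim values, it was -0.64.

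The gene casq2 encodes a calsequestrin, the calcium-binding protein of the sarcoplasmic reticulum, and is known from heart as well as slow muscle. Its signals were 922, 1082 and 1162 in wild type and 1281, 941 and 1078 in the mutant. The groups overlapped throughout, with a log2 difference of 0.05 (limma SE 0.16). It was the only member whose mean was not lower in the mutant, and without single arrays the difference ran from -0.06 to 0.16.

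**Figure D2:**
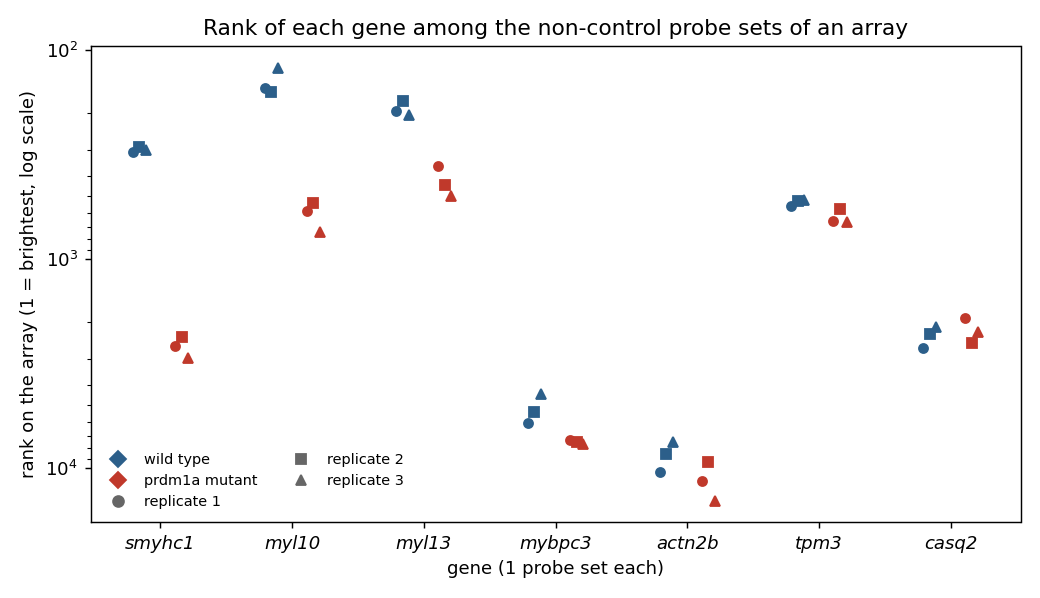
Rank of each gene's probe set among the 15502 of an array that are not controls (y axis, log scale, 1 is the brightest), by gene (x axis); colour gives the genotype and shape the replicate number. The ranks of smyhc1 go from 289 to 307 in wild type to 2352 to 2966 in the mutant, while those of tpm3 and casq2 lie close together.

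Ranked by the size of the log2 difference among all probe sets tested, 15 were more negative than smyhc1, 67 more negative than myl10, 109 more negative than actn2b, 235 more negative than mybpc3 and 317 more negative than myl13. Of those, 0 were at least as bright in wild type as the member for smyhc1 and myl10. The number was 1 for myl13, 101 for actn2b and 103 for mybpc3. Of the 302 probe sets at least as bright in wild type as smyhc1, itself included, 5 were at least 2-fold lower in the mutant and 1 was at least 2-fold higher. The 5 were smyhc1, the keratin gene krt17 at -1.93, myl10, a probe set without a gene name and the gene wu:fb18f06 at -1.06. The probe set that was higher was that of hmgn6, a nucleosome-binding protein gene, at 1.18 with a limma SE of 0.52. The share of 2-fold differences over all probe sets tested was not counted, so the 5 and the 1 are not read as many or few. The brightness cut for the 302 probe sets was the level of smyhc1 itself. A probe set of the gene hnrnpa0a at -3.02, with wild-type signals of 3598 to 4736, lay under it. Signals depend on the probes as well as on the transcript, so ranks and brightness describe probe sets and not amounts of RNA. Each brightness cut was a member's own level, and the members were chosen with this contrast known. Nothing is therefore read from these ranks and counts.

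**Figure D3:**
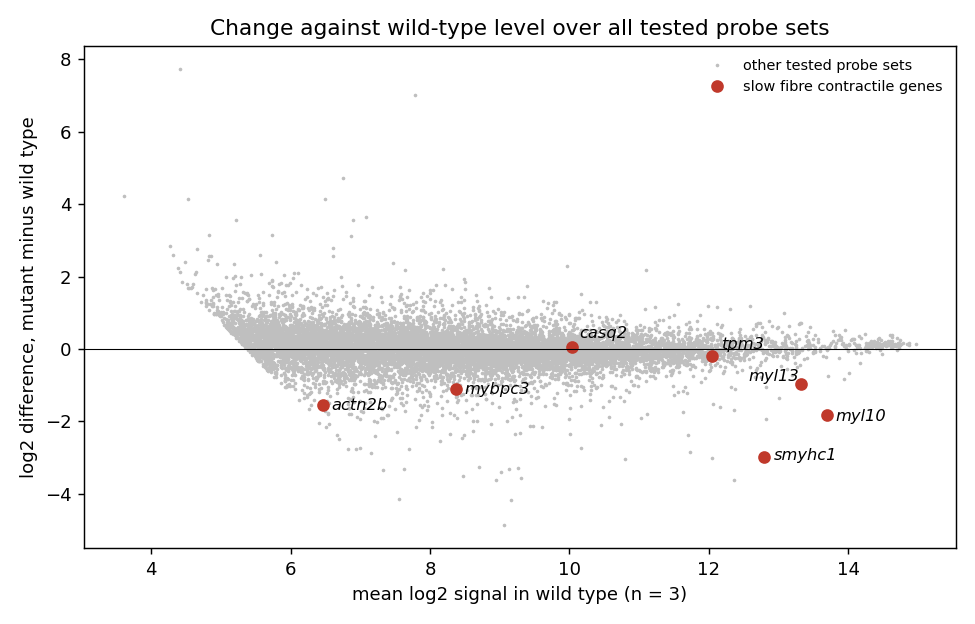
Log2 difference between mutant and wild type (y axis) against mean log2 signal in wild type (x axis, n = 3) for the 10851 probe sets tested, in grey, with the 7 slow fibre genes in red. At wild-type levels above 12, smyhc1, myl10 and myl13 lie below most grey points, and tpm3 lies among them at -0.20.

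Within a genotype, members often had the same lowest or highest array. Among the wild-type arrays, replicate 1 was the lowest for 7 of 7 members, where it was the lowest for 37.5% of all probe sets tested, and replicate 3 was the highest for 5 of 7, against 41.3%. Among the mutant arrays, replicate 3 was the lowest for 5 of 7 members, against 29.7%. The deviations from the wild-type mean in replicate 1 ran from -0.96 for actn2b to -0.07 for tpm3 on the log2 scale. Some gaps between arrays were narrow, as for myl13, with -0.09 in wild-type replicate 1 and -0.06 in replicate 3. The members are 7 genes read on the same arrays and not independent observations.

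A measure of RNA quality differed by genotype, and within wild type its lowest and highest arrays were those named above for most members. For the gapdh control probe sets, signal at the 3' end divided by that at the 5' end was 7.08, 7.65 and 3.28 in mutant replicates 1 to 3 and 9.16, 11.7 and 14.5 in wild type. That of the actin control probe sets was 26.2, 38.8 and 35.8 in the mutant and 55.4, 59.3 and 92.4 in wild type. These actin probe sets are named for acta1, a muscle actin gene. Their ratio therefore reads a muscle transcript and is not a measure of RNA quality alone. In both ratios, wild-type replicate 1 was the lowest and replicate 3 the highest wild-type array, as for myl10, mybpc3, actn2b and casq2. The gene smyhc1 had the same order, but its wild-type replicates 2 and 3 were almost level, at signals of 7251 and 7262. How many of all probe sets tested had this order was not counted. Within the mutant the ratios differed in order, with replicate 3 lowest for gapdh and replicate 1 lowest for actin. With the gapdh ratio as a covariate in limma, the log2 difference was -2.69 for smyhc1, -1.41 for myl10, -0.75 for myl13, -0.83 for mybpc3, -0.05 for tpm3, 0.15 for casq2 and, in the opposite direction, 0.57 for actn2b. With the actin ratio it was -2.89 for smyhc1, -1.46 for myl10, -1.29 for myl13, -0.46 for mybpc3, -0.12 for tpm3, 0.02 for casq2 and -0.09 for actn2b. Both ratios separated the genotypes completely, so these fits cannot tell RNA quality from genotype. Both ends of the actin control differed by genotype as well. Its 3' signal was 29910 to 30660 in the mutant and 23630 to 24200 in wild type. Its 5' signal was 770.6 to 1172 in the mutant and 261.9 to 426.6 in wild type. The part of RNA quality in the reported differences was not tested.

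**Figure D4:**
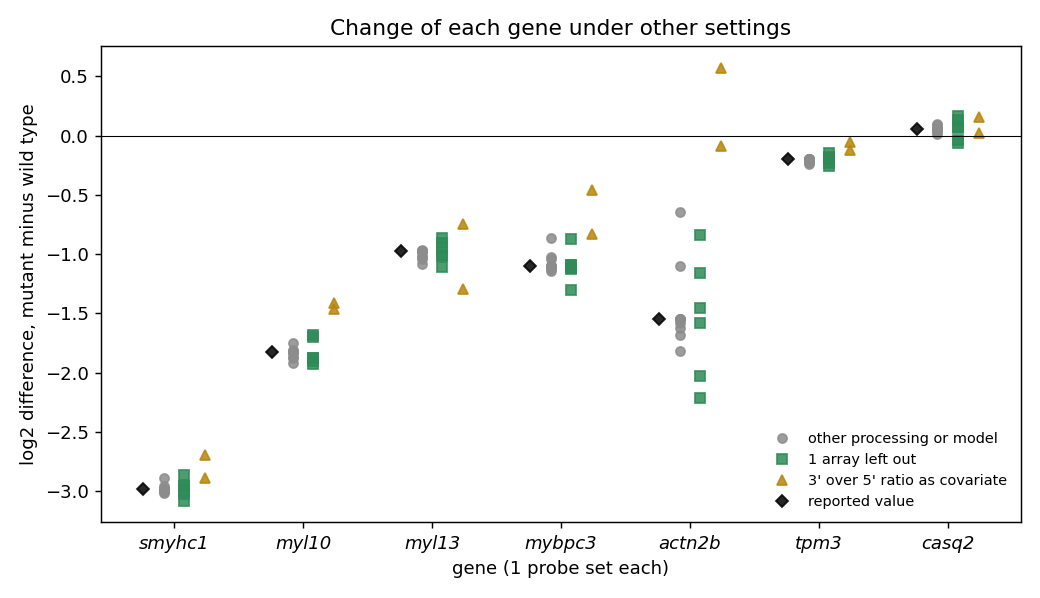
Log2 difference between mutant and wild type (y axis) for each gene (x axis) as reported (black), under other processing or models (grey), with 1 array left out (green) and with a 3' over 5' ratio as covariate (gold). The values for smyhc1 stay between -3.08 and -2.69, and those for actn2b run from -2.22 to 0.57.

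Leaving out single arrays moved the log2 differences of the members by unequal amounts. They ran from -3.08 to -2.87 for smyhc1 and from -1.92 to -1.68 for myl10. The range over left-out arrays was -1.11 to -0.87 for myl13, -1.30 to -0.87 for mybpc3 and -2.22 to -0.84 for actn2b.

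Each member was set beside genes of the same role, most of them known mainly from fast or other fibres. The list also held smyhc2 and smyhc3, the relatives of smyhc1, and mybpc1, none of which carried a probe set of its own. Of the 22 genes listed, 7 carried a probe set of their own, 8 probe sets in all, and all 8 were tested. In limma, 3 of the 8 rose in the mutant and none fell, with 5 higher and 0 lower at an unadjusted p of 0.05. Over all probe sets tested, 1.54% rose and 1.85% fell, and 10.2% were higher and 10.3% lower at the unadjusted p. Their median log2 difference was 0.50, against 0.02 over all probe sets tested. These counterparts were listed with earlier results of the same arrays known, so their counts and p-values are given as a description.

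Where mybpc3 was lower, its fast counterpart mybpc2b rose. Its signals were 396, 282 and 413 in wild type and 1681, 1421 and 1084 in the mutant, a log2 difference of 1.94 (SE 0.21, limma adjusted p = 0.00232). Every mutant array stood above every wild-type array. The fast tropomyosin gene tpma rose by 0.60 (SE 0.12, limma adjusted p = 0.0365), beside -0.20 for tpm3. It did not pass after median centring (limma adjusted p = 0.0734), without the variance trend (0.112) or with the replicate block (0.0648), and of the 6 fits with 1 array left out it passed in that without wild-type replicate 3 alone (highest limma adjusted p = 0.135).

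Among light chains, the fast regulatory chain gene mylpfa rose on 1 of its probe sets, by 0.71 (SE 0.12, limma adjusted p = 0.0163). On the other it was at 0.23 and failed the threshold (SE 0.12, limma adjusted p = 0.323). Leaving out wild-type replicate 2, mutant replicate 1 or mutant replicate 3 ended the mylpfa call, with a limma adjusted p of 0.0824 at most, as did the fit with no variance trend (0.0775). The fast light chain gene myl1 was at 0.57 and did not pass (SE 0.20, limma adjusted p = 0.149). The light chains of the slow set were at -1.83 and -0.98.

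Among heavy chains, the fast myosin gene myhz1.3 did not pass, at 0.16 (SE 0.17, limma adjusted p = 0.623). Its signals were 12629.5, 15629.6 and 18940.5 in wild type and 18886, 19029.7 and 14645 in the mutant, and the groups overlapped. The probe set shared by several fast myosin heavy chain genes was left out as it has no single name. The alpha-actinin gene actn3b was at 0.43 (SE 0.17, limma adjusted p = 0.190) and the tropomyosin gene tpm1 at 0.16 (SE 0.20, limma adjusted p = 0.713), and neither passed. No probe set was named for the fast calsequestrin genes casq1a and casq1b. With the gapdh ratio as a covariate 1 of the 3 rises passed, that of mybpc2b, and with the actin ratio 0.

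**Figure D5:**
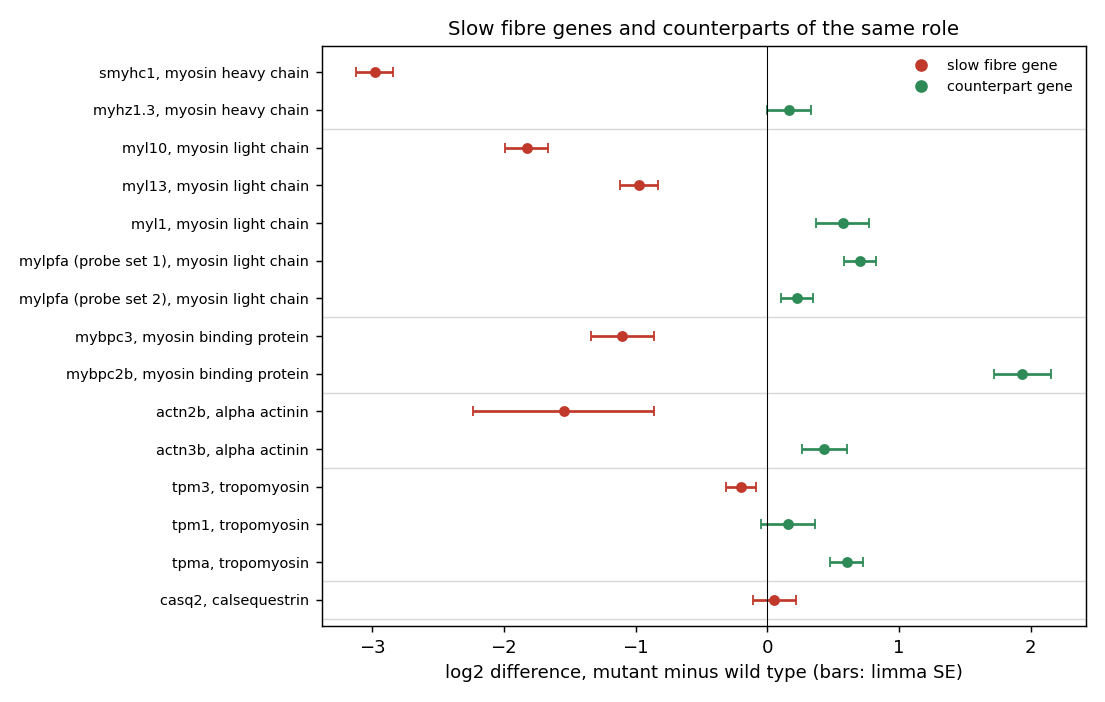
Log2 difference between mutant and wild type (x axis, points, with bars for the limma standard error, n = 3 per genotype) for each slow fibre gene (red) and its counterparts of the same role (green). The counterpart values lie between 0.16 and 1.94, and those of the slow genes between -2.98 and 0.05.

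Other genes of slow fibres, of the signals that induce them and of muscle in general were read from 4 lists. Of 30 listed slow fibre regulators and further slow genes, 8 were tested on 9 probe sets. The 1 that passed rose: cav3, which encodes the caveolin of the muscle cell membrane, at 0.78 (SE 0.13, limma adjusted p = 0.0146). The cav3 rise did not pass without the variance trend (limma adjusted p = 0.0525) or when wild-type replicate 2, mutant replicate 1 or mutant replicate 2 was left out (at most 0.0657). At an unadjusted limma p of 0.05, 3 of the 9 probe sets were higher, that of cav3 included, and 1 was lower. Shares over all probe sets were 1.54% higher and 1.85% lower among calls, and 10.2% and 10.3% at the unadjusted p. The list had a median log2 difference of 0.32, with 3 of 9 probe sets below 0.

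Of 20 probe sets tested for sarcomere genes of both fibre types and myosin assembly, 1 rose and none fell in limma, with 7 higher and 1 lower at an unadjusted p of 0.05. Over all probe sets 1.54% rose and 1.85% fell, and 10.2% were higher and 10.3% lower at the unadjusted p. The gene that rose was tmod4, which encodes a tropomodulin that caps thin filaments, at 1.09 (SE 0.16, limma adjusted p = 0.00844), and the rise did not pass without wild-type replicate 2 (0.0546). The median of the list was 0.28. With either 3' over 5' ratio as a covariate neither cav3 nor tmod4 passed (limma adjusted p from 0.0608 to 0.481).

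Signals that induce slow fibres and the regulators of muscle differentiation held no call among the probe sets tested. Of the 14 probe sets of the signals 8 were tested, and of the 22 of the myogenic regulators 8. The others lay under the filter, so nothing is said of them. For slow fibre inducing signals and their response, 0 of 8 probe sets passed in limma, with 1 higher and 0 lower at an unadjusted p of 0.05, and the median was -0.06. The 2 with the smallest p were smo, the transducer of Hedgehog signals, at 0.51 (limma adjusted p = 0.147), and cdh15, which encodes M-cadherin, at -0.77 (limma adjusted p = 0.326). For myogenic regulators, 0 of 8 passed in limma, with 2 higher and 0 lower at an unadjusted p of 0.05 and a median of -0.01. The unadjusted shares over all probe sets were 10.2% higher and 10.3% lower, and the called shares 1.54% higher and 1.85% lower. The transcription factor genes mef2ca and myod1 were at 0.70 and 0.76 (limma adjusted p = 0.226 and 0.233).

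Markers of other muscle were read on the same arrays, since heart muscle also uses some members. Of 20 heart genes listed, 12 had a probe set of their own and 8 were tested, and 5 of their 13 probe sets lay under the filter. None passed in limma, with 1 higher and 0 lower at an unadjusted p of 0.05. Over all probe sets, 1.54% were called higher and 1.85% lower, and 10.2% and 10.3% at the unadjusted p. The smallest p were those of tnnc1a, cardiac troponin C, at 1.53 (limma adjusted p = 0.0589) and of hand2, a heart and fin transcription factor gene, at -0.33 (limma adjusted p = 0.302). The tnnc1a value passed after median centring (limma adjusted p = 0.0483) and with array weights (0.0252). Its wild-type signals were dim, at 30.4, 48.8 and 44.9 beside a filter level of 41.1. In the mutant they were 104.5, 82.2 and 187.8. The heart light chain gene myl7, chosen after its values were seen, was at 0.01 (SE 0.15), with signals of 1855 to 2182 in wild type and 1845 to 2507 in the mutant. The summed heart marker signal was 5849 to 6022 in wild type and 5272 to 6492 in the mutant, so the groups overlapped. Of smooth muscle genes, acta2 alone was tested, at -0.06 (limma adjusted p = 0.910).

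Fast fibre markers were higher in sum, at 141294 to 187782 in the mutant and 96694 to 118692 in wild type over 15 probe sets. Of these, 4 rose and none fell in limma, with 12 higher and 1 lower at an unadjusted p of 0.05, and their median was 0.57. The 1 that was lower was that of pvalb4, at -0.99 (SE 0.38, limma adjusted p = 0.182). Its signals were 400, 401 and 1137 in wild type and 345, 249 and 270 in the mutant. The shares over all probe sets were 1.54% called higher and 1.85% called lower, and 10.2% higher and 10.3% lower at the unadjusted p. The mybpc2b, myl1 and mylpfa probe sets are those given above as counterparts, so markers and counterparts overlap. The markers too were listed with earlier results of these arrays known, and their counts and p-values are likewise a description. Besides mybpc2b and mylpfa the calls were the troponin T genes tnnt3a and tnnt3b, at 1.16 and 1.19 (limma adjusted p = 0.00453 and 0.0377). The tnnt3b call was lost in 4 of the 6 fits with 1 array left out, those without wild-type replicates 1 and 2 and mutant replicates 1 and 3, at a limma adjusted p of 0.155 or less. It was also lost without the variance trend (limma adjusted p = 0.0921) and with the robust trend (0.0511). With the gapdh and actin ratios as covariates neither troponin T gene passed, at limma adjusted p of 0.0686 and 0.252 for tnnt3a and 0.266 and 0.467 for tnnt3b. The part of the fast marker shift in the values of the slow genes was not tested.

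Genes were also ranked by how closely their 6 array values resembled those of smyhc1. Likeness was measured as the root mean square distance between log2 differences from the wild-type mean over the 6 arrays, so it takes in the size of the change and the order of arrays. The nearest was hnrnpa0a, which encodes an RNA-binding protein, at a distance of 0.23, with signals of 4402 to 4736 in wild-type replicates 1 and 2, 3598 in replicate 3 and 424, 607 and 543 in the mutant. The other probe sets of hnrnpa0a did not share that difference, at -0.26 and -0.36 (limma adjusted p = 0.494 and 0.147). The nearest probe set was followed by hpxb (0.29), the globin family gene cygb1 (0.36), the nuclear import receptor gene tnpo2a (0.37) and parvaa (0.54), which encodes a parvin of cell-matrix adhesions. The mutant signals were dim for hpxb, at 17.7, 25.3 and 13.3, and for parvaa, at 28.8, 54.9 and 32.9, beside a filter level of 41.1. The distances of hpxb and parvaa thus rest in part on dim values. For myl10, the member with the next largest difference, the nearest were nqo1 (0.14), which encodes a quinone reductase, map1sa (0.15), fam117ab (0.19), the neural crest gene crestin (0.21) and cry-dash (0.24), of the photolyase and cryptochrome family. Their log2 differences ran from -1.88 for crestin to -1.57 for fam117ab, beside -1.83 for myl10. These genes were picked by this likeness over 6 arrays, so their differences are given without a test.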

How the data were processed

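Per the labels' protocols, ribosomal RNA was reduced and cDNA amplified by a whole-transcript kit. The authors deposited linear intensities per probe set, and the submitters' processing notes name MAS5. For its version and for detection calls, the sources used here give nothing. The mean intensity trimmed by 2% was 500.13 to 500.14 on each array. Symbols came from the platform annotation and, through gene IDs, from RefSeq (GRCz12tu): 10802 probe sets carried 1 symbol, 135 several and 4680 none. Intensities were log2-transformed. After 115 control probe sets, the lowest 30% by mean log2 signal were left out. Genotype was fitted over 10851 probe sets with limma 3.58.1 in R 4.3.3 (variance trend, Benjamini-Hochberg over all, threshold 0.05). The median standard error was 0.222, limited by 3 arrays per genotype. The fit was tested on simulated data. Members, lists and the rule for named genes (all members and counterparts, from each list up to 4 calls or the 2 smallest p, and the 5 most alike genes) were chosen with earlier results of these data known. No label says that replicates came from separate clutches, so a p-value here covers the spread among samples that may be technical repeats. Alternatives covered normalization, offset, filter, variance model, array weights, replicate block, control ratios, threshold and left-out arrays. Figures used matplotlib 3.10.9.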

Additional observations from a re-analysis of the deposited data

How the results depend on the processing

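Over all probe sets, 368 passed, against 1416 with array weights, 44 and 26 with the gapdh and actin ratios as covariates, 811 at a threshold of 0.1 and 114 to 461 with 1 array left out (114 without wild-type replicate 2, and 210, 200 and 170 without mutant replicates 1, 2 and 3). Of the members 4 passed, against 2 with the gapdh ratio, 1 with the actin ratio and 2 to 4 with 1 array left out (2 without wild-type replicate 2), counts on the contrast that was known when they were chosen. The smyhc1 call held under every setting, and that of myl10 was lost with the actin ratio alone. The myl13 call was lost with either ratio, without wild-type replicate 2 and at 2-fold or more. That of mybpc3 was lost with either ratio, without the variance trend and with the replicate block. It was also lost in every fit with 1 array left out, except that without wild-type replicate 1. Of counterpart probe sets 3 passed, against 1 without the variance trend, 1 with the gapdh ratio, 0 with the actin ratio, 1 at 2-fold or more and 1 to 3 with 1 array left out. In the comparison lists 2 passed, against 12 with array weights, 0 with either ratio, 9 at a threshold of 0.1, 1 at 2-fold or more and 0 to 3 with 1 array left out. The causes were not tested. Same-numbered arrays did not deviate together (correlations of 0.0613, 0.0523 and -0.0749), so the numbers are not taken as pairs. With the replicate block 260 probe sets and 3 members passed. Among the members, counterparts and other genes named with a fold change, no value past the threshold changed sign. The number of arrays and dim signals, as for actn2b, limit the precision.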
